A study of Mus musculus with 4 samples.

Results

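Nfe2l1, the gene that encodes the transcription factor Nrf1, was examined together with 8 genes that work with its product or process it, in single-nucleus RNA sequencing (snRNA-seq) of neonatal mouse cardiomyocytes. The 9 genes, Nfe2l1, Nfe2l2, Keap1, Bach1, Mafg, Ddi2, Ngly1, Vcp and Syvn1, were chosen by name for their roles, out of 22574 genes in the deposited matrix. All 9 were present in the matrix and held UMIs (unique molecular identifiers, counts of captured RNA molecules) in every library. Between libraries of different surgery or genotype, Mafg was the member that differed most. It was 1.97-fold higher after myocardial infarction (MI) than after Sham surgery in the library labelled WT and 2.26-fold higher in the library labelled KO. No other member reached 1.5-fold in any comparison over all nuclei. Of all genes compared, 9.79% in WT and 11.6% in KO were also over 1.5-fold higher after MI, beyond counting error. The count of 1 in 9 members was thus near the share among all genes.

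Nrf1 and Nrf2 (encoded by Nfe2l2) are Cap'n'collar transcription factors. They bind antioxidant response elements as heterodimers with small MAF proteins and switch on genes for proteasome subunits, glutathione synthesis and detoxification. Nrf2 is held down in the cytoplasm by KEAP1, which hands it to a ubiquitin ligase, and BACH1 occupies the same elements as a repressor. Nrf1 is made as a glycosylated protein in the membrane of the endoplasmic reticulum, where the ligase HRD1 (Syvn1) and the ATPase p97 (Vcp) extract it for degradation. When the proteasome is overloaded, the N-glycanase NGLY1 removes its sugars and the protease DDI2 cuts it, which frees the active factor. The steps that control Nrf1 and Nrf2 are thus largely on the protein, which these RNA counts do not show. The gene symbol Nrf1 in mouse annotations belongs to an unrelated factor, nuclear respiratory factor 1, and was not used.

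Hearts came from C57BL/6 mice with loxP-flanked Nrf1 alleles (Nrf1 fl/fl), operated on postnatal day 3 and collected on the following day. The MI-WT and Sham-WT libraries were from Nrf1 fl/fl mice without Cre, and MI-KO and Sham-KO from Nrf1 fl/fl mice carrying αMHC-Cre, a recombinase driven by a promoter active in cardiomyocytes, so that all 4 groups shared the loxP alleles. MI was induced by tying off the left anterior descending artery, and Sham hearts had no such ligation. Each library was 1 pool of tissue from 4 to 6 hearts, with 1 library per group. No spread between replicate pools could be measured, and no test of a surgery or a genotype was possible. Intervals given here are exact 95% intervals that cover counting error only.

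The 4 libraries held 1406 to 3328 nuclei and 4984625 to 9106522 UMIs. Sham-KO stood apart, with a median of 2572 UMIs and 8.98% mitochondrial UMIs per nucleus, against 3553.5 to 3959 UMIs and 5.29% to 6.58% in the other libraries. All 7 cardiomyocyte markers checked were detected in every library, at a summed 29464 to 33961 CPM (UMIs of a gene per 1000000 UMIs of the library). Markers of other cells were also present: the 11 myeloid markers summed to 558 CPM in MI-WT, 285 in MI-KO, 130 in Sham-WT and 98.3 in Sham-KO, all 11 of them detected in each library. The endothelial list ranged from 535 to 877 CPM, the fibroblast list from 986 to 1165 CPM and the red blood cell list from 2123 to 4519 CPM. The same barcode occurred in 2 libraries in 9 cases.

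Nfe2l1 (chr11:96817414-96829968, GRCm38, minus strand, no overlapping gene in GENCODE M21) is the gene deleted in the KO mice, so its level bears on the labels. It was at 47.4 CPM in MI-WT (377 UMIs), 55.3 CPM in MI-KO (407 UMIs), 62.2 CPM in Sham-WT (310 UMIs) and 50.5 CPM in Sham-KO (460 UMIs). The highest and the lowest level were thus both in libraries labelled WT, and no library was near 0. In the Sham pair KO over WT had a log2 ratio of -0.30 (interval -0.51 to -0.09). In the MI pair it was 0.22 (0.02 to 0.43), which goes against the label. Subtracting the Sham ratio from the MI ratio gave 0.52 (0.23 to 0.82 from counting error). The log2 ratio of MI over Sham was -0.39 in WT, with an interval free of 0, and 0.13 in KO, with an interval that held 0. The sources used here do not give the exons between the loxP sites, and UMIs were counted over exons and introns of the whole gene from 3′ tags, so that RNA of a deleted allele could still be counted. The measured level is therefore a limited check of the labels, and the words "library labelled KO" are meant in that sense throughout. It is not the only evidence on the knockout. The study genotyped the mice from tail tissue on the day of collection. It also measured Nrf1 RNA by quantitative PCR in knockout and WT hearts of a later postnatal age.

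**Figure D1:**
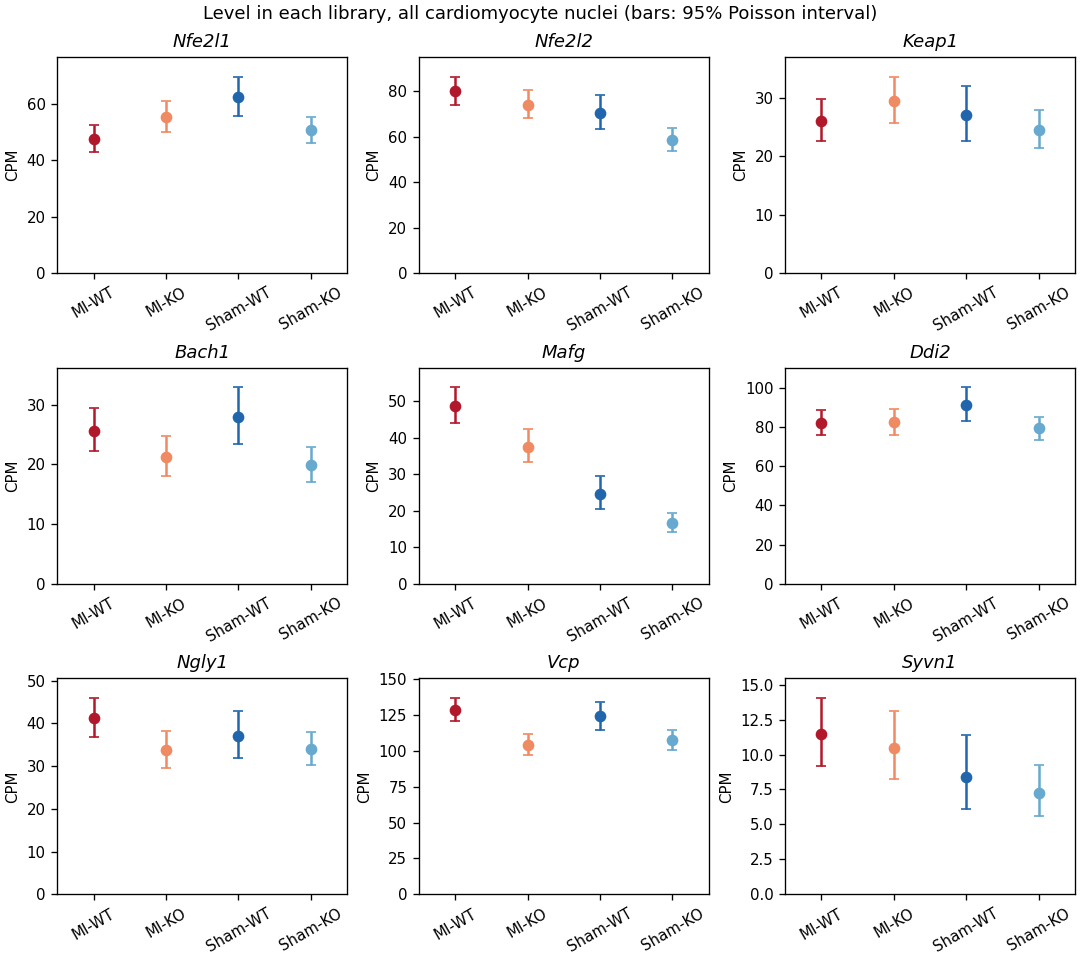
Level of each of the 9 genes in CPM (vertical axes, each from 0) in the 4 libraries, over all cardiomyocyte nuclei; points are single libraries and bars their exact 95% Poisson intervals. Mafg shows the widest range, from 16.6 CPM in Sham-KO to 48.6 CPM in MI-WT, while Nfe2l1 lies between 47.4 and 62.2 CPM.

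The Nfe2l1 ratios were not alike in all nuclei. Within CM1, the most abundant population, KO over WT was -0.20 (-0.44 to 0.03) for Sham and 0.39 (0.14 to 0.63) for MI. In CM4, the population described by the study as proliferative and marked by Acta2, the MI ratio had the opposite sign, -0.95 (-2.11 to 0.12), on 11 UMIs in MI-KO and 26 in MI-WT. In CM5, the injury-responsive population, it was 0.06 (-0.41 to 0.52) for MI and -1.14 (-2.02 to -0.28) for Sham. Of the KO over WT ratios in the 4 populations, only the CM1 ratio for MI and the CM5 ratio for Sham had intervals without 0.

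Depth of the nuclei also mattered. In nuclei with over 4000 UMIs, Nfe2l1 was at 43.6 CPM in MI-WT and 60.7 CPM in MI-KO, a log2 ratio of 0.48 (0.21 to 0.74). In nuclei with 2000 to 4000 UMIs it was at 52.4 CPM in MI-WT and 46.1 CPM in MI-KO, and the ratio turned to -0.18 (-0.54 to 0.17). The direction in the MI pair therefore differed with the depth of the nuclei that were summed. In nuclei with under 2000 UMIs, few in the MI libraries, the counts were 15 UMIs in MI-WT and 9 in MI-KO. The Sham ratio stayed below 0 in all 12 alternative computations, between -0.35 and -0.12, but its interval was free of 0 in 2 of the 10 that give an interval.

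**Figure D2:**
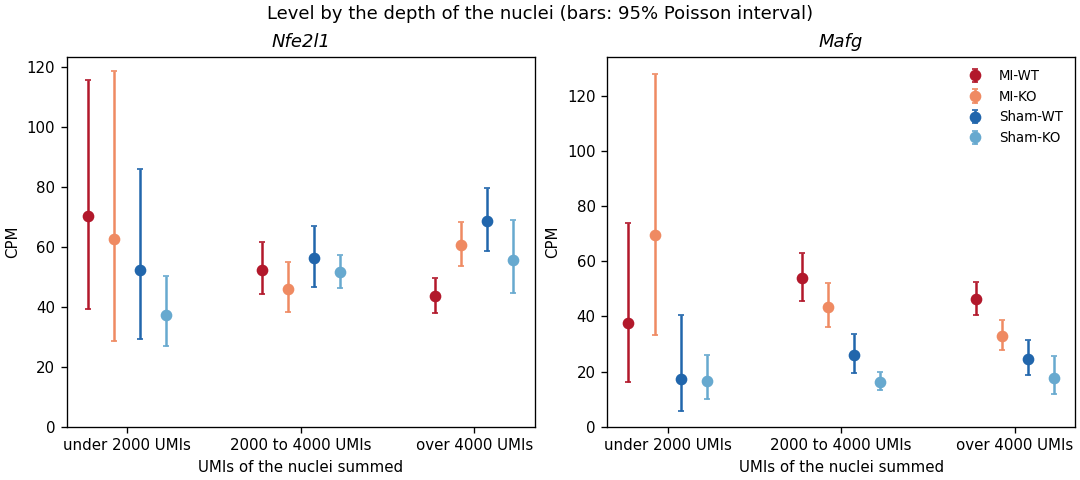
Level of Nfe2l1 and Mafg in CPM (vertical axes, from 0) in nuclei grouped by their own number of UMIs (horizontal axis), with 1 point per library and exact 95% Poisson intervals. For Nfe2l1 the order of MI-KO and MI-WT changes between the middle and the deepest group, whereas both MI libraries lie above both Sham libraries for Mafg in each depth group.

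In an earlier data set the study reports Nrf1 as enriched in CM4 and, on imputed values, correlated with the CM4 marker Acta2. It also reports co-expression by RNA in situ hybridization. Here the level of Nfe2l1 was compared between populations on counts without imputation, in other hearts that include those labelled KO. The data and the measures thus differ. Over all nuclei the MI over Sham log2 ratio of Nfe2l1 was here -0.39 in WT, opposite to the reported direction, and 0.13 in KO. In CM4 of the WT libraries the level was the higher after MI, on 26 and 22 UMIs, within each other's intervals. The mean over 4 libraries was 57.0 ± 17.9 CPM (SD, n = 4) in CM5, 54.1 ± 7.45 in CM1, 47.6 ± 13.5 in CM4 and 46.8 ± 14.1 in CM2, the population that carried the cycling markers Mki67, Top2a and Ccnb2. Neighbours in that order differed by less than the spread between libraries. The 4 libraries differ in surgery and genotype, so here and below this SD is not a spread between replicates. CM4 was higher than CM1 in 1 library, MI-WT, by 0.48 on the log2 scale, and lower in the other 3, and no interval was free of 0. In CM4 and CM1 Nfe2l1 was at 61.7 and 44.1 CPM in MI-WT and 55.6 and 61.4 CPM in Sham-WT. In the same order it was at 32.0 and 57.7 CPM in MI-KO and 41.1 and 53.3 CPM in Sham-KO. After each nucleus was thinned to 1000 UMIs, the CM4 over CM1 ratio was -0.06 in MI-WT, 0.06 in Sham-KO and -0.08 in Sham-WT, each with an interval that held 0, and -2.72 (-8.04 to -0.20) in MI-KO on 1 UMI in CM4. The MI-WT and Sham-KO ratios thus changed sign with depth made equal. Acta2 itself was higher in CM4 than in CM1 in 4 of 4 libraries, by 0.61 to 1.72 on the log2 scale.

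The same question was asked nucleus by nucleus after this thinning. Over all 4 populations, nuclei with a UMI of Acta2 and nuclei without one had a log2 ratio of Nfe2l1 of 0.22 (-0.59 to 0.97) in MI-WT, -0.15 (-0.87 to 0.53) in MI-KO, -0.99 (-2.35 to 0.13) in Sham-WT and 0.05 (-0.49 to 0.57) in Sham-KO. At this depth none of the 4 libraries showed a detectable difference over all nuclei, and the ratios lay on both sides of 0. Within CM4, nuclei with and without Acta2 held 3 and 4 UMIs of Nfe2l1 in MI-WT, 1 and 0 in MI-KO, 9 and 10 in Sham-KO, and 0 and 10 in Sham-WT, where the interval of the log2 ratio lay below -0.08. In Sham-KO the CM4 ratio was 1.04 (-0.44 to 2.49). No nucleus held more than 3 UMIs of Nfe2l1 before thinning, which limits any comparison made nucleus by nucleus.

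Nfe2l2 (chr2:75675513-75704641, minus strand) encodes Nrf2. Its level was 80.1 CPM in MI-WT, 74.2 CPM in MI-KO, 70.6 CPM in Sham-WT and 58.5 CPM in Sham-KO. The MI level was above the Sham level in each genotype, with a log2 ratio of 0.34 (0.17 to 0.52) in KO and 0.18 (-0.01 to 0.37) in WT. In the Sham pair Nfe2l2 was lower in the library labelled KO with a log2 ratio of -0.27 (-0.47 to -0.07). The order of the 4 libraries was the order of their summed myeloid markers. In nuclei without any UMI of the myeloid list, chosen as a check after the values had been seen, Nfe2l2 was at 70.0 CPM in MI-WT and 70.6 CPM in Sham-WT, a log2 ratio of -0.01 (-0.41 to 0.37), and the KO ratio was 0.29 (0.03 to 0.54).

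Among the populations Nfe2l2 had its highest mean in CM5, at 86.8 ± 13.4 CPM (SD, n = 4), followed by 79.4 ± 26.4 in CM2, 68.0 ± 7.46 in CM1 and 64.2 ± 8.91 in CM4. CM5 and CM2 differed by less than the spread between libraries. CM2 was above CM5 in both WT libraries, at 105 against 101 CPM in MI-WT and 97.8 against 73.8 CPM in Sham-WT, on 27 and 11 CM2 UMIs. It was below CM5 in both KO libraries, at 65.5 against 95.4 CPM in MI-KO and 49.3 against 77.1 CPM in Sham-KO. The CM2 and CM5 intervals overlapped in every library. Nfe2l2 was higher in CM5 than in CM1 within 4 of 4 libraries, by 0.05 to 0.47 on the log2 scale, with intervals above 0 in both MI libraries. After thinning, the Sham-WT ratio was below 0, at -0.43 (-2.09 to 0.85) on 5 UMIs.

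Keap1 (chr9:21229730-21239361, minus strand), the adaptor that targets Nrf2 for degradation, varied least of the Nrf2 group. Its level was 26.0 CPM in MI-WT, 29.5 CPM in MI-KO, 27.1 CPM in Sham-WT and 24.6 CPM in Sham-KO, and none of its 4 ratios had an interval free of 0. The annotated antisense gene Gm16754 overlaps it. Bach1 (chr16:87698945-87733346, plus strand), the repressor that competes for the same elements, was at 25.6 CPM in MI-WT, 21.2 CPM in MI-KO, 27.9 CPM in Sham-WT and 19.9 CPM in Sham-KO. Bach1 was thus lower in each library labelled KO than in its WT counterpart, with a log2 ratio of -0.49 (-0.82 to -0.16) in the Sham pair and with a log2 ratio of -0.27 (-0.58 to 0.03) in the MI pair. The MI and Sham levels of Bach1 within a genotype differed by less than counting error.

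Mafg (chr11:120625117-120633600, minus strand) encodes a small MAF protein, a partner of Nrf1, Nrf2 and BACH1 on DNA. A core antioxidant response element, TGACNNNGC on either strand, lies upstream of its start site, and is shown here with those of the other members that hold one, because CNC-MAF dimers are known to bind elements of this form. The sequences are RefSeq promoter sequence of GRCm38.p6 on the strand of the gene, with the element in capitals. They lie at chr11:120633736-120633794 for Mafg, chr2:75704870-75704913 for Nfe2l2 and chr4:43000588-43000646 for Vcp, all on the minus strand, and the element starts 222, 240 and 114 bases before the start site in the same order.
Mafg: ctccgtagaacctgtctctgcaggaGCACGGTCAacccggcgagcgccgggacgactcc
Nfe2l2: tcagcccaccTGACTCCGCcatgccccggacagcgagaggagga
Vcp: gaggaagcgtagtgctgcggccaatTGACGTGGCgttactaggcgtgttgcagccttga

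These were 3 of the 13 promoter windows of the 9 members, each running from 250 bases before to 50 after a start site, and 12.4% of 32851 mouse promoter windows of the same length held the core. The Mafg match reads on the opposite strand. The AP-1 element TGANTCA, of which some antioxidant response elements are an extension, was in none of the 13 windows and in 7.81% of all. A match is a match of letters and not a bound site.

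Mafg was at 48.6 CPM in MI-WT (387 UMIs), 37.5 CPM in MI-KO (276 UMIs), 24.7 CPM in Sham-WT (123 UMIs) and 16.6 CPM in Sham-KO (151 UMIs). Both MI libraries lay above both Sham libraries, and within each surgery the library labelled KO lay below WT. The log2 ratio of MI over Sham was 0.98 (0.68 to 1.28) in WT and 1.18 (0.89 to 1.47) in KO. That of KO over WT was -0.57 (-0.93 to -0.22) for Sham and -0.38 (-0.60 to -0.15) for MI. In all 12 alternative computations the MI libraries stayed higher, between 0.75 and 1.21 in WT and between 0.81 and 1.41 in KO, and each of the 10 intervals available in either genotype was above 0.

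**Figure D3:**
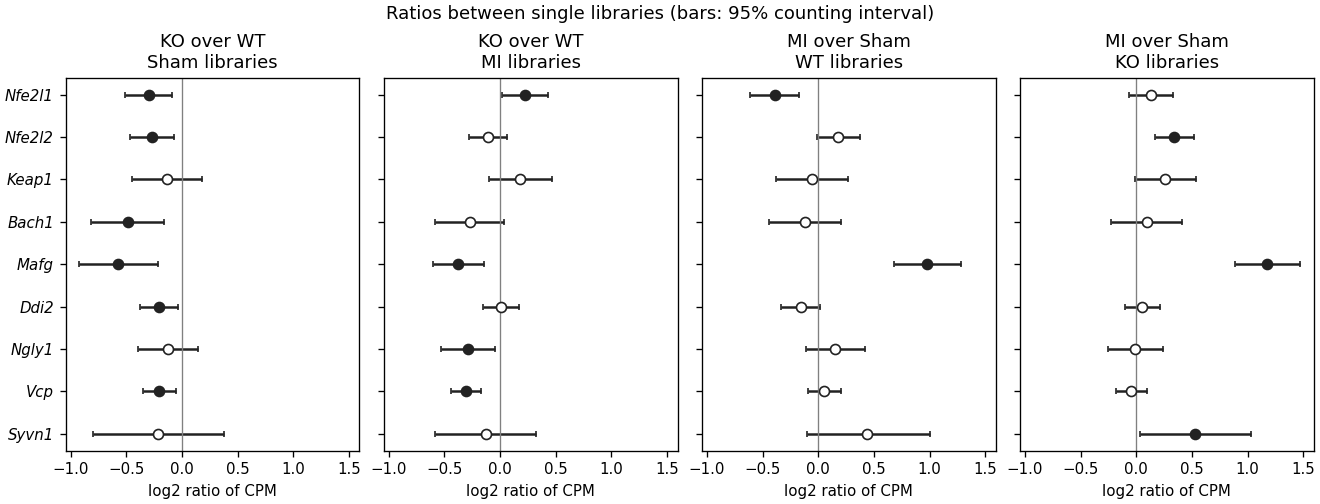
Log2 ratio of CPM (horizontal axes) of the 9 genes in 4 comparisons, each of 1 library with another, over all nuclei; bars are exact 95% counting intervals and filled points have intervals free of 0. Mafg is the only point near 1, in both MI over Sham comparisons. In KO over WT for Sham, 6 of 9 points are filled and below 0, and 19.4% of all genes were lower by the same rule.

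The MI difference of Mafg was seen in CM1 and was larger in CM5. In CM1 Mafg was at 42.8 CPM in MI-WT, 26.5 CPM in MI-KO, 25.3 CPM in Sham-WT and 14.3 CPM in Sham-KO, and MI-KO and Sham-WT were within each other's intervals. In CM5 it was at 74.5 CPM in MI-WT and 84.0 CPM in MI-KO, against 18.4 CPM in Sham-WT (6 UMIs) and 28.3 CPM in Sham-KO (18 UMIs). The MI over Sham log2 ratio was 0.76 (0.42 to 1.10) for WT and 0.89 (0.51 to 1.27) for KO in CM1, and 2.01 (0.84 to 3.49) and 1.57 (0.85 to 2.37) in CM5. In CM4 the ratios were 0.97 (-0.12 to 2.16) for WT and 0.42 (-0.75 to 1.54) for KO, on 11 to 23 UMIs in each library.

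Between genotypes, the KO over WT log2 ratio of Mafg in CM1 was -0.82 (-1.23 to -0.42) for Sham and -0.69 (-1.0 to -0.39) for MI. In CM1 nuclei without a myeloid UMI it was -0.88 (-1.37 to -0.39) for Sham and -0.59 (-1.27 to 0.10) for MI. In CM4 it was -0.10 (-1.24 to 1.12) for Sham and -0.64 (-1.79 to 0.42) for MI, so that CM4 intervals held both 0 and the CM1 values. In CM5 it was 0.62 (-0.78 to 2.24) for Sham and 0.17 (-0.21 to 0.56) for MI, above 0 but within counting error. Within MI-KO, Mafg was higher in CM5 than in CM1 by 1.67 on the log2 scale (1.30 to 2.03), and within MI-WT by 0.80 (0.46 to 1.13).

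The myeloid list followed Mafg over the 4 libraries, and the injury list followed it with surgery only. The order of the 4 libraries by Mafg was also their order by summed myeloid markers. In nuclei without any myeloid UMI, 290 in MI-WT, 682 in MI-KO, 899 in Sham-WT and 2586 in Sham-KO, Mafg was at 49.1, 41.6, 25.2 and 16.9 CPM in that order. The MI over Sham log2 ratio there was 0.96 (0.43 to 1.48) in WT and 1.30 (0.91 to 1.68) in KO, close to the values over all nuclei, while the KO over WT ratio for MI was -0.24 (-0.72 to 0.25). The myeloid list in CM5 and CM1 was at 492 and 546 CPM in MI-WT, 281 and 272 in MI-KO, 126 and 123 in Sham-WT, and 107 and 95.6 in Sham-KO, so that CM5 was the lower in 1 library and the higher in 3. The part of the myeloid markers in the Mafg differences was not tested further. The injury markers Nppb, Ankrd1 and Xirp2 summed to 3492 CPM in MI-WT and 3692 CPM in MI-KO against 286 in Sham-WT and 396 in Sham-KO, so that they too moved with surgery. Mafg and its neighbour Sirt7 overlap by 124 bases on the same strand.

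**Figure D4:**
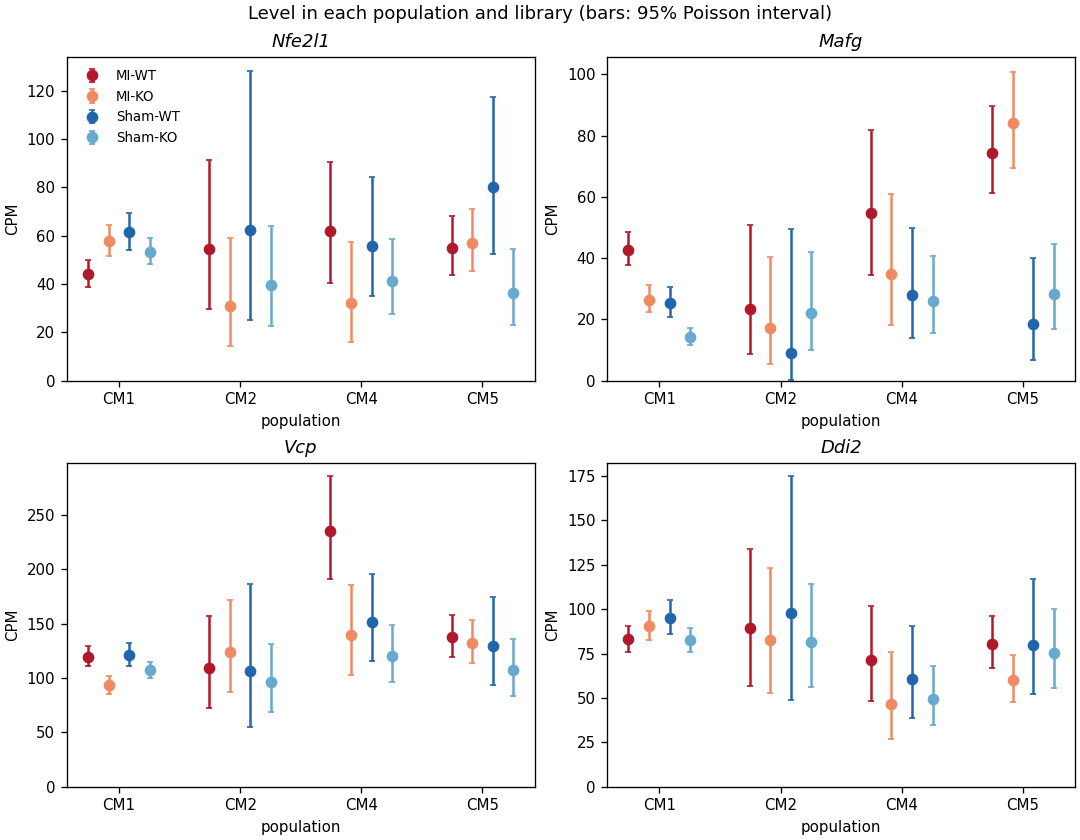
Level of Nfe2l1, Mafg, Vcp and Ddi2 in CPM (vertical axes, from 0) in the 4 cardiomyocyte populations, with 1 point per library and exact 95% Poisson intervals. Mafg in CM5 separates the MI libraries (74.5 and 84.0 CPM) from the Sham libraries (18.4 and 28.3 CPM), and Vcp is highest in CM4 of MI-WT (235 CPM).

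Vcp (chr4:42979963-43000507, minus strand), the p97 ATPase that pulls ubiquitinated Nrf1 out of the membrane, was at 129 CPM in MI-WT (1024 UMIs), 104 CPM in MI-KO (767 UMIs), 124 CPM in Sham-WT (618 UMIs) and 108 CPM in Sham-KO (979 UMIs). The libraries labelled KO were below both WT libraries. For KO over WT the log2 ratio was -0.30 (-0.44 to -0.17) for MI and -0.21 (-0.35 to -0.06) for Sham, while MI and Sham differed by less than counting error in either genotype. In the MI pair the interval stayed free of 0 in 9 of 10 alternatives.

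Among the populations Vcp had its highest mean in CM4. There it was at 235 CPM in MI-WT, 140 CPM in MI-KO, 152 CPM in Sham-WT and 120 CPM in Sham-KO, and the mean of 162 ± 50.5 CPM (SD, n = 4) compared with 110 ± 13.0 CPM in CM1. CM4 was higher than CM1 in 4 of 4 libraries, by 0.97 (0.65 to 1.28) in MI-WT and by 0.17 to 0.58 in the others. Within CM4, MI-WT was higher than Sham-WT by 0.63 (0.15 to 1.12), and MI-KO lower than MI-WT with a log2 ratio of -0.75 (-1.28 to -0.24). After thinning to 1000 UMIs the CM4 over CM1 ratio stayed at 0.87 (0.34 to 1.37) in MI-WT and was 0.01 to 0.10 in the other 3 libraries, each with an interval that held 0.

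Ddi2 (chr4:141677549-141723419, minus strand), the protease that activates Nrf1, was at 82.1 CPM in MI-WT, 82.3 CPM in MI-KO, 91.5 CPM in Sham-WT and 79.3 CPM in Sham-KO. The KO over WT log2 ratio was 0.00 (-0.16 to 0.17) for MI and -0.21 (-0.38 to -0.03) for Sham. In CM4 it was at 71.2 CPM in MI-WT, 46.6 CPM in MI-KO, 60.7 CPM in Sham-WT and 49.3 CPM in Sham-KO. Ddi2 was lower in CM4 than in CM1 in 4 of 4 libraries, the opposite direction to Vcp. The log2 ratios were -0.96 to -0.22, with 3 intervals below 0. After thinning, MI-WT was at 0.07 (-0.82 to 0.85), and no member was lower in CM4 in all 4 libraries. CM4 nuclei were the shallowest, with a median of 1715.5 to 2394 UMIs and 9.47% to 14.6% mitochondrial UMIs, and held 1583 to 1659 CPM of endothelial and 2011 to 2481 CPM of fibroblast markers. The myeloid markers were at 127 to 973 CPM in CM4 and 95.6 to 546 CPM in CM1, and the red blood cell markers at 3538 to 12805 CPM and 1891 to 3829 CPM, each higher in CM4 in 4 of 4 libraries. The myeloid sum was highest in CM4 of MI-WT, where Vcp was also highest. Depth, mitochondrial share and all 4 marker lists thus move with the Vcp and Ddi2 differences. Their part in these differences was not tested.

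Ngly1 (chr14:16249280-16311926, plus strand), which removes N-glycans from Nrf1, was at 41.2 CPM in MI-WT, 33.7 CPM in MI-KO, 37.1 CPM in Sham-WT and 33.9 CPM in Sham-KO. MI-WT was thus the highest, and the KO over WT ratio was -0.29 (-0.53 to -0.05) for MI and -0.13 (-0.40 to 0.14) for Sham. Oxsm overlaps it on the opposite strand, as 1700022I11Rik overlaps Vcp and Mrpl49 overlaps Syvn1. Syvn1 (chr19:6046576-6053712, plus strand), the HRD1 ligase, was the least counted member, at 11.4 CPM in MI-WT (91 UMIs), 10.5 CPM in MI-KO (77 UMIs), 8.43 CPM in Sham-WT (42 UMIs) and 7.25 CPM in Sham-KO (66 UMIs). MI was above Sham in each genotype, by 0.53 (0.04 to 1.03) in KO and 0.44 (-0.10 to 1.0) in WT. The KO interval was free of 0 in 0 of 10 alternatives. In both MI libraries Syvn1 was higher in CM5 than in CM1, by 1.05 (0.35 to 1.72) in MI-WT and 1.59 (0.86 to 2.31) in MI-KO. The ratio was 0.05 in Sham-WT on 3 CM5 UMIs and -0.03 in Sham-KO on 4. After thinning, it was 0.48 (-1.61 to 2.20) in MI-WT and 1.37 (-0.26 to 2.91) in MI-KO, on 4 and 7 CM5 UMIs.

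The members were then read against all genes with at least 20 UMIs over the libraries compared. Past 1.5-fold with an interval free of 0, the count was 1 of 9 members, Mafg, among higher genes in MI over Sham for WT, where 9.79% of genes passed, and for KO, where 11.6% passed. The count of higher members was thus near the share of all genes in both genotypes. No member passed among lower genes, where 12.5% (WT) and 9.73% (KO) of genes did. In KO over WT no member passed in either direction, against 3.07% of genes higher and 2.69% lower for Sham, and 1.54% higher and 1.6% lower for MI.

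By the interval alone, 6 of 9 members (Nfe2l1, Nfe2l2, Bach1, Mafg, Ddi2 and Vcp) were lower and 0 higher in KO over WT for Sham, where 19.4% of genes were lower and 9.36% higher. The Sham pair had a median log2 ratio of -0.09 over all genes, and trimmed mean of M values (TMM) scaling raised all its ratios by 0.11, after which 2 of 9 members had such an interval. The share of all genes after this scaling is not given here, so the rescaled count has no share to be read against. For MI, 3 members (Mafg, Ngly1 and Vcp) were lower and 1 (Nfe2l1) higher, against 6.87% and 9.9% of genes. In MI over Sham, Mafg was higher and Nfe2l1 lower in WT, with 18.3% of genes higher and 24.3% lower. In KO, 3 members (Nfe2l2, Mafg and Syvn1) were higher and 0 lower, with 25.7% higher and 19.7% lower among all genes. The KO over WT and MI over Sham comparisons share libraries, so that a low value in Sham-KO enters more than 1 of them.

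Over populations, Mafg and Vcp were higher in CM4 than in CM1 in all 4 libraries, as were 24.4% of 10614 genes, and Ddi2 was lower, as were 34.2%. Nfe2l2 and Vcp were higher in CM5 than in CM1 in all 4 libraries, as were 11.4% of 10659 genes, and Ddi2 was lower, as were 15.1%. The populations were clustered by the authors on the same nuclei, so these counts are descriptions.

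Other genes of the pathway were grouped in lists, and each was described by its counts of intervals above and below 0, to be read against all genes. Among all genes, 18.3% were above and 24.3% below in MI over Sham for WT, and 25.7% above and 19.7% below for KO. Of the other CNC, BACH and small MAF factors, 4 of 5 had enough UMIs, and 3 were higher after MI in each genotype, with a median log2 ratio of 0.79 in WT and 0.89 in KO. They included the other small MAF genes: Maff was higher by 1.68 (0.57 to 2.99) in WT and 1.51 (0.53 to 2.58) in KO, and Mafk by 1.13 (0.25 to 2.10) and 1.23 (0.57 to 1.92). Maff rested on 8 and 13 UMIs in the Sham libraries. The median over all genes was -0.07 in WT and 0.04 in KO. All 3 small MAF genes, Mafg included, were thus higher in the MI library of each genotype. Bach2 was the third of the list, by 0.33 (0.18 to 0.49) in WT and 0.55 (0.41 to 0.69) in KO.

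Antioxidant response targets, which CNC-MAF dimers activate, had more intervals above than below 0 after MI, with 6 of 12 above and 2 below in WT, and 7 of 13 above and 2 below in KO, against 18.3% and 24.3% of all genes in WT and 25.7% and 19.7% in KO. Hmox1, which degrades heme, was higher by 1.37 (0.86 to 1.91) in WT and 1.59 (1.02 to 2.18) in KO. Its Sham counts were 40 UMIs in Sham-WT, 10 of them in a single nucleus, and 37 UMIs in Sham-KO. The myeloid markers were higher after MI in the same pairs, at 558 against 130 CPM in WT and 285 against 98.3 CPM in KO. Gclc, the catalytic subunit of the enzyme that limits glutathione synthesis, was higher by 1.06 (0.67 to 1.46) and 1.41 (1.07 to 1.75). Txnrd1, a thioredoxin reductase, was higher by 1.15 (0.84 to 1.47) in WT and 1.29 (1.04 to 1.55) in KO. In KO, Slc7a11, a cystine transporter, was higher by 1.89 on 18 and 6 UMIs, and Srxn1, a sulfiredoxin, by 1.82 on 37 and 13 UMIs.

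Between genotypes, 1 of 12 targets was above and 3 below for Sham, and 1 of 13 above and 5 below for MI. Of all genes, 9.36% were above and 19.4% below for Sham, and 9.9% above and 6.87% below for MI. Hmox1 was lower in the library labelled KO with a log2 ratio of -0.98 (-1.67 to -0.30) for Sham and -0.76 (-1.15 to -0.38) for MI, and Me1, malic enzyme, with a log2 ratio of -0.68 (-1.02 to -0.34) and -0.74 (-1.02 to -0.46). Srxn1 was the exception, higher by 1.07 (0.24 to 1.95) for MI. The Hmox1 ratios rested on 37 UMIs in Sham-KO and 40 in Sham-WT, and on 90 in MI-KO and 165 in MI-WT. In Sham-WT the 40 UMIs lay in 27 nuclei, with 10 of them in a single nucleus. The intervals treat such UMIs as independent and so do not cover this. Hmox1 is also abundant in myeloid cells, whose markers were lower in each library labelled KO than in its WT counterpart. Their part in the Hmox1 differences, after MI and between genotypes, was not tested.

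Proteasome subunits, which Nrf1 activates, had no common direction across the pairs. Of 34, 16 were above and 4 below in KO over WT for Sham, with a median of 0.18, and 0 were above and 9 below for MI, with a median of -0.13. The shares of all genes were 9.36% above and 19.4% below for Sham, with a median of -0.09, and 9.9% and 6.87% for MI, with a median of 0.03. Sham-KO also differed in quality, with a median of 2572 UMIs and 8.98% mitochondrial UMIs per nucleus against 3553.5 and 6.58% in Sham-WT. TMM scaling would move all ratios of the Sham pair up by a further 0.11. These list counts were made on CPM over all nuclei only, and the part of the library difference in them was not tested. Psmd1, a subunit of the base of the regulatory particle, was lower with a log2 ratio of -0.61 (-0.76 to -0.46) for MI, and Psmb6, a catalytic subunit, higher by 0.64 (0.46 to 0.82) for Sham. In MI over Sham, 11 were above and 3 below in WT, and 5 above and 15 below in KO, against 18.3% and 24.3% of all genes in WT and 25.7% and 19.7% in KO. Psmd14, the deubiquitinase of the lid, was higher by 0.74 (0.53 to 0.95) in WT and 0.63 (0.44 to 0.81) in KO.

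The glycan and membrane steps of Nrf1 were covered by 2 lists, read against the same all-gene shares (MI over Sham, 18.3% above and 24.3% below for WT and 25.7% and 19.7% for KO). Of the 9 subunits of the oligosaccharyltransferase, which attaches the sugars NGLY1 removes, 7 were above and 1 below in MI over Sham for WT and 7 above and 2 below for KO, where Stt3a was higher by 0.65 (0.42 to 0.89), Rpn2 by 0.62 (0.41 to 0.82) and Rpn1 by 0.61 (0.37 to 0.85). The HRD1 and ER-associated degradation list had 1 of 13 above and 2 below in WT and 7 above and 1 below in KO. Herpud1, an HRD1 cofactor, was lower with a log2 ratio of -0.80 (-1.07 to -0.52) in WT, and Selenos higher by 0.63 (0.40 to 0.87) in KO. In KO over WT, the oligosaccharyltransferase list had 2 above and 0 below for Sham and 3 above and 0 below for MI, and the degradation list 0 above and 2 below, and 2 above and 0 below. All genes had 9.36% above and 19.4% below for Sham and 9.9% and 6.87% for MI.

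The cofactors and shuttles of p97 had 3 of 14 above and 3 below in MI over Sham for WT, where 18.3% of all genes were above and 24.3% below, and 6 above and 2 below for KO, where 25.7% and 19.7% were. Ubxn6 was lower with a log2 ratio of -1.10 (-1.50 to -0.70) in WT and -0.90 (-1.22 to -0.59) in KO, Svip, an inhibitor of ER-associated degradation, lower with a log2 ratio of -0.76 (-1.48 to -0.04) in WT, and Aspscr1 higher by 0.69 (0.40 to 0.99) in KO. Genes of Nrf2 turnover had 1 of 11 above and 2 below in WT, with Amer1 at -0.86 (-1.29 to -0.43), and 5 above and 2 below in KO. Genes that modify Nrf1 or mark it for turnover had 2 of 10 above and 4 below in WT, and 3 above and 4 below in KO, where Fbxw11, an F-box protein, was higher by 0.59 (0.44 to 0.73). In KO over WT for Sham, 7 of these 10 were below 0, in the pair whose ratios all move up with TMM scaling, and 0 of 10 were on either side for MI. The p97 list had 1 above and 5 below for Sham and 2 above and 2 below for MI, and the Nrf2 turnover list 1 above and 1 below in both, against 9.36% above and 19.4% below among all genes for Sham and 9.9% and 6.87% for MI.

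The profiles of Nfe2l1 and Nfe2l2 over the 12 sums of CM1, CM4 and CM5 in the 4 libraries were compared with those of other genes, by Pearson's r of log2(CPM + 10). These sums share libraries, include those labelled KO and differ in depth, so r is a description. The 5 genes most like Nfe2l1 among 5452 were Ubap2l (0.92), Spast (0.87), Ap3d1 (0.86), Acbd5 (0.84) and Taf2 (0.84). Bach1 had r = 0.72 with Nfe2l1 and Ddi2 0.53, while Acta2 had -0.56, Mki67 -0.33 and Ccnb2 -0.42. The correlations of Nrf1 with Acta2, Mki67 and Ccnb2 that the study reports are over single cardiomyocytes of other data, on imputed values. They are thus a different measure from r over these sums. The 5 genes most like Nfe2l2 among 4475 were Ptpn12 (0.96), Enah (0.95), Gbe1 (0.95), Otulin (0.94) and Atxn10 (0.94), and of the members Mafg (0.74) and Syvn1 (0.70) came nearest. Nfe2l1 and Nfe2l2 had r = 0.01 with each other.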

How the data were processed

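UMI counts per gene were deposited by the authors as raw values for each of 8585 nuclei. The methods of the study state alignment by Cell Ranger (version not given in the sources used here) to a pre-mRNA reference of mm10/GRCm38, which counts introns, removal of doublets by Scrublet, a filter of 200 to 2500 genes, and Seurat 3 clusters restricted to cardiomyocytes, with CM3 merged into CM1. The percentage of mitochondrial UMIs was taken as deposited by the authors. Another 10 columns with values for single nuclei were left unused. Final population labels were used. In the transferred labels CM2 and CM5 are exchanged (743 nuclei of final CM5 had been predicted CM2), and the final ones carried cycling markers in CM2 and injury markers in CM5. The labels and the methods name different versions of the 10x Genomics 3′ kit.

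Counts were summed per library and population and scaled to CPM, with exact Poisson intervals, and ratios had exact conditional binomial intervals (Python 3.11.15, SciPy 1.17.1, TMM factors from edgeR 4.0.16). The computation of the intervals was checked on Poisson counts drawn with known ratios. These hold no spread between nuclei or pools, so the check does not bear on such spread in the data. With 1 library per group no test was made. Genes entered with 20 or more UMIs over both sums. Named were the members, list genes past 1.5-fold with an interval free of 0 (up to 4 per list and comparison), Acta2, Mki67, Ccnb2, and the 5 genes most like Nfe2l1 and Nfe2l2; Bach2 was named after its values were seen. Members, lists and comparisons were chosen with earlier results of these data known. Positions are from GENCODE M21 (22133 of 22574 symbols matched) and promoters from RefSeq (GRCm38.p6, all 9 members matched).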

Additional observations from a re-analysis of the deposited data

Results flagged for a closer look

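The KO over WT log2 ratio of Nfe2l1 differed between the surgeries: it was -0.30 between the Sham libraries and 0.22 between the MI libraries, a difference of 0.52. It stood out because the single library of each group moved in opposite directions. The difference was not tested, since each value rests on 1 library per group and its interval of 0.23 to 0.82 covers counting error only. The MI ratio itself turned to -0.18 in nuclei with 2000 to 4000 UMIs.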

How the results depend on the processing

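No paired analysis was possible because each group has 1 library. For the same reason no library could be left out. The KO over WT ratio of Nfe2l1 for MI, 0.22, turned to -0.18 in nuclei with 2000 to 4000 UMIs, rose to 0.45 in nuclei low in markers of other cell types and reached 0.48 in nuclei with over 4000 UMIs. The cause was not tested. The 6 members with an interval free of 0 in KO over WT for Sham became 2 with TMM scaling, 2 with median of ratios scaling, 2 after thinning, 2 in nuclei without a myeloid UMI and 2 in nuclei with over 4000 UMIs. The 4 members of the MI pair became 0 after thinning, 1 in nuclei with 2000 to 4000 UMIs and 1 without a myeloid UMI, and the 2 of MI over Sham for WT became 1 in each of the latter. Restricting nuclei and thinning also reduce the UMIs counted. The shares of all genes under these settings are not given here, so these counts cannot be read against them. Members lower in CM4 than in CM1 in all 4 libraries numbered 1, and 2 by the transferred label and 0 after thinning. The settings without a myeloid UMI and with over 4000 UMIs were chosen after seeing the data. Weighting nuclei or populations alike gives no interval and so no count. Mafg stayed higher in MI in all 12 settings in both genotypes.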
